A study of Mus musculus with 4 samples.

Results

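The genes described here encode 7 parts of the caspase machinery that carries out apoptosis: the apoptosome components *Apaf1*, *Cycs* and *Casp9*, the caspases *Casp2* and *Casp6*, the caspase inhibitor *Xiap* and its antagonist *Diablo*. They were chosen by gene name, and 10 of the 55681 probes on the array carry those names. All 10 probes passed the filter on dim probes, so all 7 genes were among the 19678 genes tested.

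In the mitochondrial route to apoptosis, cytochrome c leaves the mitochondria and binds Apaf-1, which assembles into the apoptosome and activates caspase-9, and caspase-9 in turn cleaves the executioner caspases. XIAP binds and blocks caspases, and Smac, the product of *Diablo*, displaces XIAP from them. Neural progenitors of the developing brain are known to depend on this route, and loss of *Apaf1* or *Casp9* leaves an excess of cells in the forebrain. *Apaf1* is also a known transcriptional target of p53, the product of *Trp53*.

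Neural stem/progenitor cells (NSPCs) came from mouse embryos at embryonic day 13.5 and were grown as neurospheres with EGF and basic FGF. The labels give the strain Slc:ICR for both genotypes, whereas by the study's methods the disrupted *Trp53* allele came from heterozygous mice of the RIKEN BioResource Center, whose background is not given there, so a difference of background cannot be told apart from genotype. Cells of 2 genotypes, wild-type and Trp53-/- (both *Trp53* alleles disrupted), were cultured with 20 µM PJ34, an inhibitor of poly(ADP-ribose) polymerases, or without it as control. The duration of treatment for the arrays is not given in the sources used here, and neither is the number of embryos behind a culture. Each of the 4 two-colour arrays set PJ34-treated cells (Cy5) against untreated cells (Cy3) of 1 genotype, with 2 independently prepared arrays per genotype. The values given are log2 ratios of PJ34 over control on an array, or normalized log2 intensities of 1 channel. Because the dyes were not swapped, a dye bias of a probe cannot be told apart from an effect of PJ34 within a genotype, whereas it cancels in the difference between genotypes. In such whole-culture RNA, fewer cells of a type and less RNA per cell cannot be told apart.

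The number of probes well above background ran from 21505 to 27156 over the channels of the arrays, and log2 ratios of the 2 arrays of a genotype correlated at 0.703 in wild-type and 0.646 in Trp53-/- across genes. The probe of *Trp53* read 8.28 and 8.51 in untreated wild-type cells and 7.56 and 7.82 in untreated Trp53-/- cells, a difference of 0.71 (limma, q = 0.0564). Its position relative to the disrupted part of the gene is not given in the sources used here, so it is a weak check of the label. Of the markers of NSPCs, 8 of 8 were well above background in the control channel of all arrays, as were 6 of 6 neuronal and 7 of 7 oligodendrocyte-lineage markers, whereas 0 of 5 markers of meningeal fibroblasts were. The summed control intensity of the oligodendrocyte-lineage list was 11950 and 10070 in wild-type and 16580 and 16310 in Trp53-/-. The sums of other lists ran the opposite way, at 11350 and 9192 against 7411 and 7495 for neurons. They were 6099 and 7198 against 4445 and 3830 for microglia, and 8536 and 8113 against 3620 and 3233 for endothelial cells. Of these markers, 2 of 5 (microglia) and 1 of 4 (endothelial) were well above background on all arrays. Single neuronal markers went both ways in untreated cells. *Map2*, *Snap25* and *Syp* were higher in wild-type (by 0.45, 0.73 and 0.80), whereas *Rbfox3*, *Dcx* and *Tubb3* were lower (−1.24, −0.64 and −0.62). The part of these lists in any difference between genotypes was not tested. Replicate 2 of Trp53-/- stood apart in sex-linked genes: the log2 ratio of the Y-linked *Eif2s3y* was 4.22 and that of the X-inactivation transcript *Xist* was −3.08 on that array, against −0.20 and 0.56 on the other Trp53-/- array. The PJ34 and control RNA of that array thus differed in sex-linked transcripts. On that array an effect of PJ34 cannot be told apart from a difference between the cultures behind the 2 channels. Its ratios enter every Trp53-/- mean and every difference in response unless the array is said to be left out. For members called in Trp53-/- or in the difference, the value without it is also given. Untreated cells of the genotypes differed in such transcripts too. *Eif2s3y* read 8.96 and 8.47 in wild-type controls and 6.01 and 6.24 in Trp53-/- controls, a difference of 2.59 (limma, q = 0.00868). For the Y-linked *Ddx3y* the difference was 2.05 (q = 0.00868), and for *Xist* it was −1.05 (q = 0.0647, not called). The part of sex in the untreated comparison of genotypes was not tested.

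The sequences below show where the measurements were made. The first set holds the starts of the probes of *Apaf1*, the member that differed between genotypes, and of *Cycs* and *Diablo*, the members with more than 1 probe. Each line gives the first 30 bases of a 60-base probe, all in lower case, with no bases marked.
*Apaf1* A_51_P417701 (mm9 chr10:90452580-90452639): aacaaaatcttgtatagggttaaggaaggt
*Cycs* A_55_P2020153 (mm9 chr6:50515092-50515151): atgaatggctagcaatgtttttgttggaca
*Cycs* A_52_P82247 (mm9 chr6:50514522-50514581): aattgtccttaaatacccactcagaaacac
*Cycs* A_55_P1968958 (mm9 chr6:50512563-50512622): cgttacacttacatattcattttaaccact
*Diablo* A_51_P494929 (mm9 chr5:123962170-123962229): cacacccttaagttcagtagctgtttaact
*Diablo* A_66_P133025 (mm9 chr5:123973293-123973352): aacgctgtttctcagaattgataaaaccat

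The second set is the 250 bases upstream of the start of *Apaf1*, which rose with PJ34 in wild-type cells, and of *Casp2*, the member with the next largest mean there. Both are from RefSeq on GRCm38.p6, written 5′ to 3′ on the strand of the gene.
*Apaf1* (chr10:91082744-91082993, minus strand): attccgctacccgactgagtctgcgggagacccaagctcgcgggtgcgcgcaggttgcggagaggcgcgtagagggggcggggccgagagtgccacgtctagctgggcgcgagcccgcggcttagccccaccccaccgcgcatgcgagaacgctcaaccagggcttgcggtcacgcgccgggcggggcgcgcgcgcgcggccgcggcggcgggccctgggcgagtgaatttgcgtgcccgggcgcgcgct
*Casp2* (chr6:42264735-42264984, plus strand): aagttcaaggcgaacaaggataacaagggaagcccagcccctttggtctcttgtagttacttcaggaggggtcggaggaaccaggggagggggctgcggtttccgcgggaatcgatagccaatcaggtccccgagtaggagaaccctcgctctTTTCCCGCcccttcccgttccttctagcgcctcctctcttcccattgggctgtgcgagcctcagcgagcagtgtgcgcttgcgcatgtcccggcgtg
Capitals in *Casp2* mark a match to the E2F motif TTTCCCGC, which starts 97 bases before the gene's start. Both strands of windows from 250 bases before to 50 bases after gene starts were searched, and this motif was present in 1 of 9 windows of the 7 genes against 1.07% of 32851 windows of all genes. A second E2F motif, TTTGGCGC, was found in 0 of the 9 windows against 0.514% of all windows. The half-site consensus of p53 was found in 0 of the 9 windows, *Apaf1* included, against 8.36% of all windows. No match says only that these letters are not in this window.

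In wild-type NSPCs, PJ34 was followed by a higher level of *Apaf1* and lower levels of *Casp2* and *Xiap*, with 0 of 7 changed more than 2-fold (0.503% of all genes were called at that size, and 0.371% in Trp53-/-). In Trp53-/- NSPCs, *Diablo* was higher and *Cycs* and *Xiap* were lower, with means from −0.29 to 0.27. Those directions hold after loess normalization. When each array was only centred on its median spot, the median of all genes lay at 0.46 in wild-type and 0.64 in Trp53-/-. *Casp2*, *Xiap* and *Cycs* then turned positive. Relative to that median, *Casp2* (−0.39 in wild-type, −0.01 in Trp53-/-) and *Xiap* (−0.26 and −0.07) stayed lower, whereas *Cycs* was higher (0.12 and 0.16). At q below 0.05, 3 of the 7 genes were called in wild-type (1 higher, 2 lower), where 25.2% of all genes were called, 13.7% higher and 11.4% lower. In Trp53-/- 3 of 7 were called (1 higher, 2 lower), where 23.4% of all genes were called, 12.8% higher and 10.6% lower. With replicate 2 of Trp53-/- left out, the Trp53-/- values were 0.26 for *Diablo*, −0.28 for *Cycs* and −0.12 for *Xiap*. With 7 genes, counts of 3 are too small to set the group apart from these backgrounds. The median log2 ratio of the 7 genes was −0.05 in wild-type and −0.05 in Trp53-/-, and that of all genes was 0.03 in both.

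**Figure D1:**
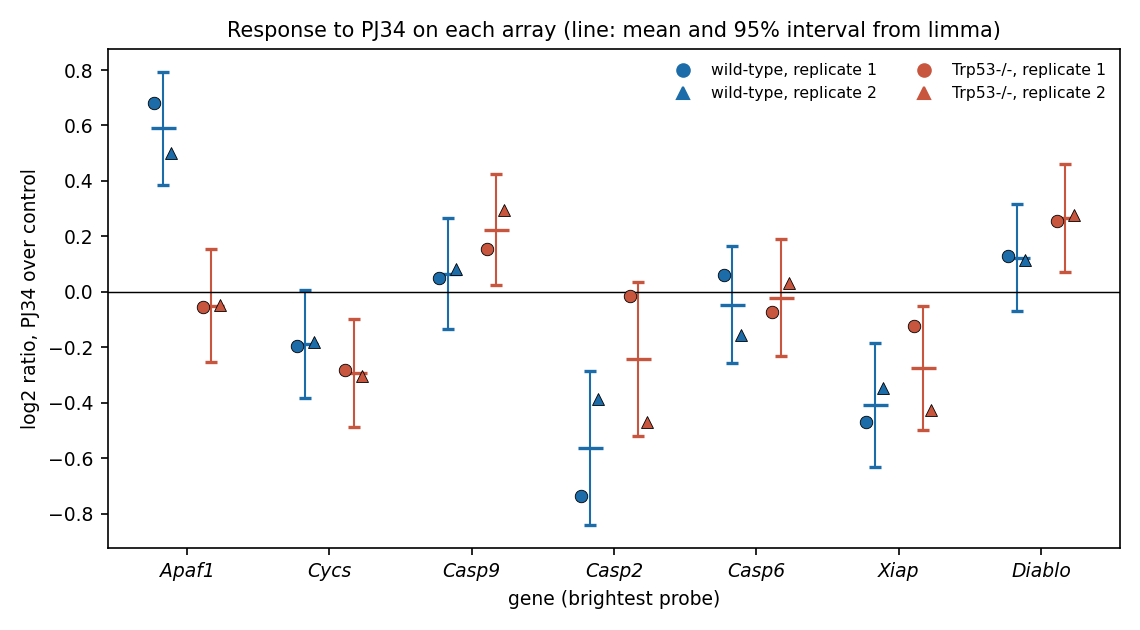
Log2 ratio of PJ34 over control after loess normalization (y axis) for the 7 genes (x axis), with 1 point per array and the mean with its 95% interval from limma for each genotype. The wild-type points of *Apaf1* (0.68 and 0.50) lie above both Trp53-/- points (−0.05 and −0.05), and the negative values of *Casp2*, *Xiap* and *Cycs* turn positive with median centring of the arrays.

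*Apaf1*, the scaffold of the apoptosome, had log2 ratios of 0.68 and 0.50 on the wild-type arrays and −0.05 and −0.05 on the Trp53-/- arrays. The wild-type arrays both lay above 0 and above both Trp53-/- arrays. The mean in wild-type was 0.59 (SE 0.09, n = 2), a 1.5-fold rise with a 95% interval of 1.3-fold to 1.73-fold (limma, q = 0.00105). The mean in Trp53-/- was −0.05 (95% interval −0.25 to 0.15, q = 0.361), with an interval that does not reach the wild-type mean. Wild-type minus Trp53-/- was 0.64 (SE 0.13, 95% interval 0.35 to 0.93, q = 0.0341), and *Apaf1* was the member called in this test, 1 of 7, where 1.78% of all genes were called and 1.31% were called higher in wild-type. The rise in wild-type was called under all 18 alternatives, at values from 0.50 to 0.98. Settings such as the block, the adjustment, the variance model or leaving out a Trp53-/- array cannot change this mean, only its test. The difference kept its sign under all 17 alternatives, several of which cannot change its value, but was not called under 6 of them. It was 0.64 with replicate 2 of Trp53-/- left out (q = 0.0916), 0.64 without replicate 1 of Trp53-/- and 0.55 without replicate 1 of wild-type, and in none of these was it called. Relative to the median of all genes, median centring gave 0.52 in wild-type, −0.36 in Trp53-/- and 0.84 for the difference.

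The levels behind these ratios come from the same spots, so they restate the ratios and cannot show which channel moved. In wild-type the normalized log2 intensity of *Apaf1* was 7.86 and 7.29 in control cells and 8.54 and 7.79 in PJ34-treated cells of the same arrays. In Trp53-/- it was 7.10 and 7.20 in control and 7.05 and 7.15 with PJ34. Both PJ34-treated wild-type channels were above every Trp53-/- channel, and so were both untreated wild-type channels. The untreated difference of 0.42 had a 95% interval from −0.13 to 0.98 (q = 0.185), so no difference in untreated cells was called.

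*Cycs* encodes somatic cytochrome c, the partner of Apaf-1. Its brightest probe gave log2 ratios of −0.20 and −0.18 in wild-type and −0.28 and −0.30 in Trp53-/-. All arrays were below 0, and the 2 Trp53-/- arrays were below both wild-type arrays. The mean was −0.19 in wild-type (q = 0.0857) and −0.29 in Trp53-/- (SE 0.09, q = 0.0228), which turned to 0.80 under median centring, 0.16 above the median of all genes. Replicate 1 of Trp53-/- alone gave −0.28 (q = 0.196), and the mean of the 3 probes of the gene gave −0.07 (q = 0.273), so the call rests on the brightest probe. The difference between genotypes was 0.11 (95% interval −0.17 to 0.38, q = 0.554).

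The other probes of *Cycs* did not all move with the brightest one. Probe A_52_P82247 read −0.15 and 0.05 in wild-type and −0.10 and −0.32 in Trp53-/-, a mean of −0.21 there (q = 0.0944). Probe A_55_P1968958 read 0.13 and −0.20 in wild-type and 0.22 and 0.36 in Trp53-/-, a mean of 0.29 (q = 0.044 with each probe as its own feature). In Trp53-/- cells 2 probes of *Cycs* thus lay past the threshold in opposite directions, and A_55_P1968958 was the single member probe not well above background in both channels of every array. The position of each probe within the transcript was not analysed here. Cytochrome c has many processed pseudogene copies in the mouse genome, and whether these probes also bind their transcripts was not tested.

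*Diablo* encodes Smac, the mitochondrial protein that displaces XIAP from caspases. Its brightest probe gave log2 ratios of 0.13 and 0.12 in wild-type and 0.26 and 0.28 in Trp53-/-. All 4 arrays were above 0, and the Trp53-/- arrays were above the wild-type arrays. The mean was 0.12 in wild-type (q = 0.186) and 0.27 in Trp53-/- (SE 0.09, 1.2-fold, q = 0.032). Replicate 1 of Trp53-/- alone gave 0.26 (q = 0.234). Its other probe gave 0.04 and 0.06 in wild-type and 0.34 and 0.28 in Trp53-/-, so both probes had the same order of genotypes. The difference between genotypes was −0.14 (95% interval −0.42 to 0.13, q = 0.48) for the brightest probe and −0.26 (95% interval −0.54 to 0.02, q = 0.292) for the other. Neither was called.

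**Figure D2:**
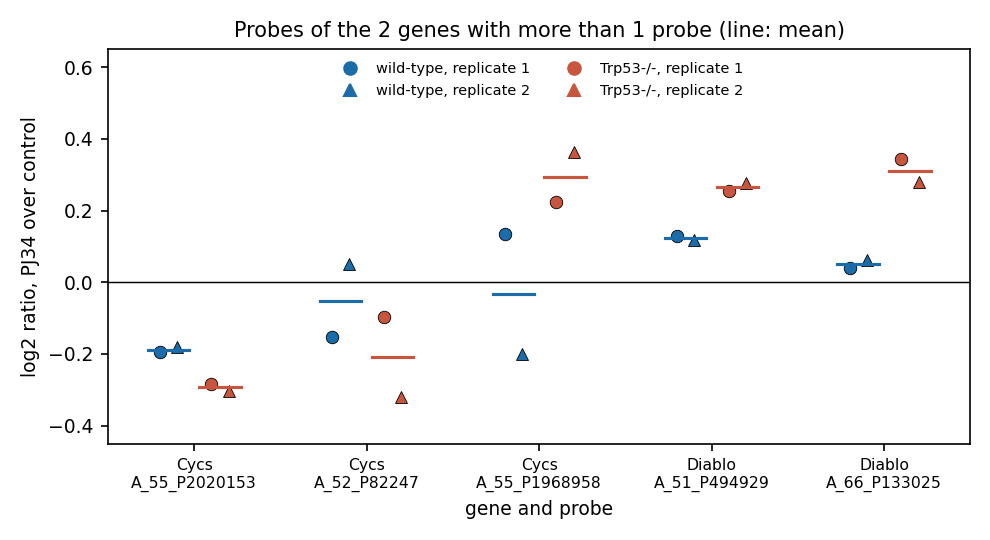
Log2 ratio of PJ34 over control (y axis) for the 3 probes of *Cycs* and the 2 probes of *Diablo* (x axis), with 1 point per array and a line at each genotype's mean. The Trp53-/- means of the *Cycs* probes run from −0.29 to 0.29, whereas those of the *Diablo* probes are 0.27 and 0.31, and after median centring the brightest *Cycs* probe turned positive.

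*Casp9*, the initiator caspase that the apoptosome activates, gave log2 ratios of 0.05 and 0.08 in wild-type and 0.15 and 0.29 in Trp53-/-. Its mean was 0.07 in wild-type (95% interval −0.13 to 0.27, q = 0.337) and 0.22 in Trp53-/- (95% interval 0.02 to 0.42, q = 0.059). All 4 arrays were above 0, and neither genotype passed the threshold. With replicate 2 of Trp53-/- left out, the Trp53-/- value was 0.15. The difference between genotypes was −0.16 (95% interval −0.44 to 0.13, q = 0.461).

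*Casp2*, the caspase activated on the PIDDosome by way of its adaptor CRADD, read −0.74 and −0.39 on the log2 scale in wild-type and −0.01 and −0.47 in Trp53-/-. The 2 genotypes overlapped, since replicate 2 of Trp53-/- lay between the wild-type arrays. The wild-type mean was −0.56 (SE 0.13, a 1.48-fold fall, q = 0.00643), which turned to 0.07 under median centring, 0.39 below the median of all genes there. Without replicate 1 of wild-type the value was −0.39 and missed the threshold (q = 0.0675). The Trp53-/- mean was −0.24 (95% interval −0.52 to 0.04, q = 0.107), and the difference was −0.32 (95% interval −0.71 to 0.07, q = 0.331). With replicate 2 of Trp53-/- left out, the Trp53-/- value was −0.01 and the difference was −0.55 (q = 0.195), and neither was called. In wild-type, the normalized log2 intensity was 11.76 and 11.29 in control and 11.02 and 10.90 with PJ34.

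*Casp6*, an executioner caspase that cleaves nuclear lamins, did not pass the threshold in either genotype. On the 4 arrays its log2 ratios were 0.06 and −0.16 in wild-type and −0.07 and 0.03 in Trp53-/-. The arrays of each genotype lay on both sides of 0 and overlapped between genotypes. The means were −0.05 in wild-type (95% interval −0.26 to 0.16, q = 0.397) and −0.02 in Trp53-/- (95% interval −0.23 to 0.19, q = 0.44). These intervals leave room for a change of up to about 0.26 on the log2 scale in either genotype.

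*Xiap*, the inhibitor that binds initiator and executioner caspases, gave log2 ratios of −0.47 and −0.35 in wild-type and −0.12 and −0.42 in Trp53-/-. All 4 arrays were below 0, and the genotypes overlapped. The wild-type mean was −0.41 (SE 0.10, 1.33-fold lower, q = 0.0102), and it was 0.21 under median centring, 0.26 below the median of all genes. The Trp53-/- mean was −0.27 (SE 0.10, q = 0.0463), and it was 0.57 under median centring, 0.07 below that median. Without replicate 1 of wild-type the wild-type value was −0.35 (q = 0.0864). The difference between genotypes was −0.13 (95% interval −0.45 to 0.18, q = 0.534). *Xiap* lies on the X chromosome, and on replicate 2 of Trp53-/-, where *Xist* and the Y-linked genes differed between channels, its value was the lowest of that genotype. Without that array the Trp53-/- value was −0.12 (q = 0.474), and the part of the sex-linked difference in it was not tested.

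**Figure D3:**
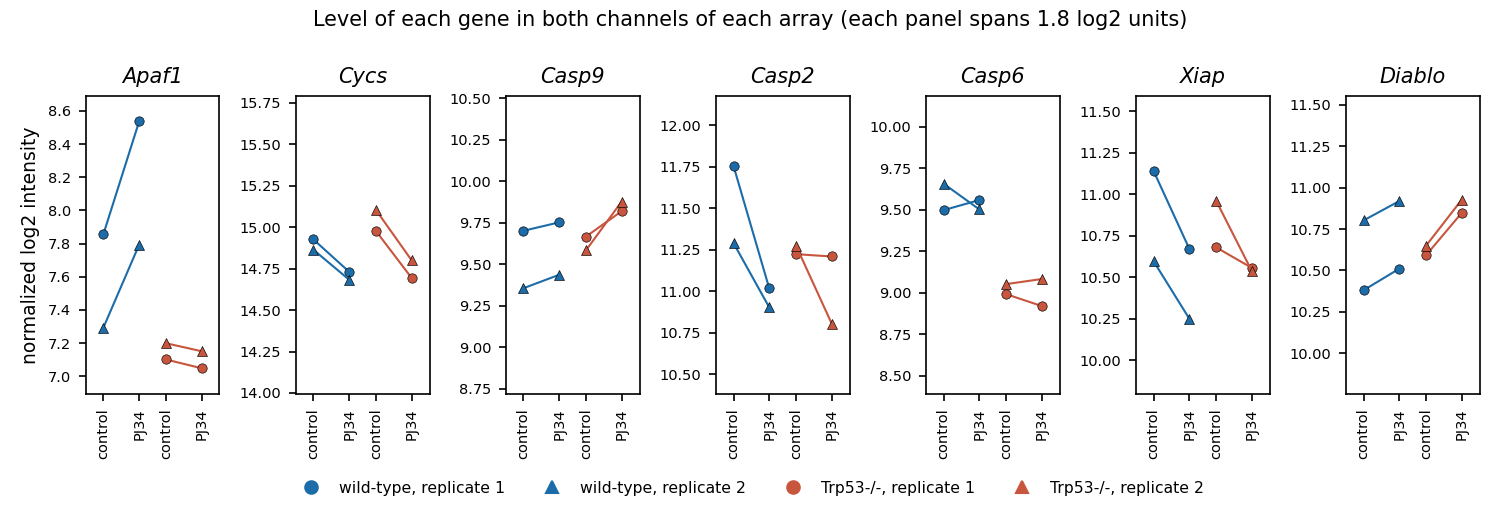
Normalized log2 intensity (y axis) of the 7 genes in the control and PJ34 channels of each array, joined by a line per array, with every panel spanning 1.8 log2 units so that slopes can be compared but heights between genes cannot. *Apaf1* rises on both wild-type arrays and stays between 7.05 and 7.20 on the Trp53-/- arrays, and *Casp6* is higher in both wild-type controls (9.50 and 9.66) than in both Trp53-/- controls (8.99 and 9.05).

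Between untreated cells of the 2 genotypes, 0 of the 7 genes were called at q below 0.05 (limma), where 7.36% of all genes were called. At an unadjusted p below 0.05, 1 of 7 was called, where 23.2% of all genes were. That gene was *Casp6*, at 9.50 and 9.66 in wild-type and 8.99 and 9.05 in Trp53-/-, a difference of 0.56 (SE 0.17, 95% interval 0.15 to 0.96, q = 0.0734). The genotypes did not overlap for *Casp6*, and the difference was from 0.48 to 0.64 when single arrays were left out. In the same fits the difference ran from 0.04 to 0.51 for *Casp2* and from 0.14 to 0.71 for *Apaf1*. In these fits the genotype with 1 array left was taken to vary like the other, so calls from them are not read here. *Casp2* read 11.76 and 11.29 in wild-type and 11.22 and 11.27 in Trp53-/- (difference 0.27, q = 0.275). *Cycs* read 14.93 and 14.86 against 14.98 and 15.10, a difference of −0.15 that was not called. The control levels of *Casp9*, *Xiap* and *Diablo* overlapped between genotypes, with differences from −0.10 to 0.05. Arrays of the genotypes did not overlap for 4 of 7 genes, against 56.1% of all genes. Untreated cells of the genotypes also differed in Y-linked transcripts, and the part of that difference in these levels was not tested.

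The test of the difference in response addressed whether PJ34 acted on these genes differently without p53. Besides *Apaf1*, the 6 other members had differences from −0.32 to 0.11 with q from 0.331 to 0.699, and their 95% intervals all held 0. The arrays of the genotypes did not overlap for 4 of 7 genes (*Apaf1*, *Cycs*, *Casp9* and *Diablo*), against 45.1% of all genes. Only *Apaf1* among them had wild-type and Trp53-/- means of opposite sign. When replicate 2 of Trp53-/- was left out, the difference was 0.64 for *Apaf1* and −0.55 for *Casp2*.

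**Figure D4:**
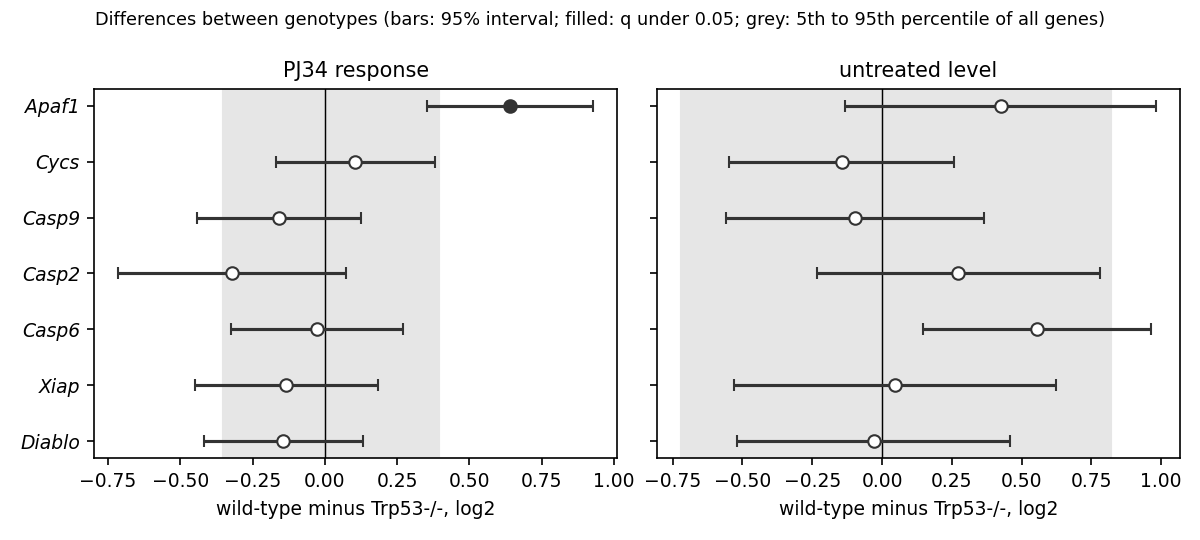
Wild-type minus Trp53-/- on the log2 scale (x axis) for the PJ34 response (left) and the untreated level (right) of the 7 genes (y axis), with 95% intervals, points filled where q is below 0.05, and the 5th to 95th percentile of all genes in grey. The response of *Apaf1* (0.64) is the filled point, and it lies outside the grey band from −0.35 to 0.40.

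The genes whose responses over the 4 arrays were nearest to that of *Apaf1* among 19678 genes, by Euclidean distance of the log2 ratios, were *Cd81* (distance 0.0592), a tetraspanin of the cell surface, *Bloc1s2* (0.115), a subunit of a complex for lysosome-related organelles, and *Dyrk3* (0.117), a protein kinase. *Cd81* read 0.63 and 0.48 in wild-type and −0.03 and −0.05 in Trp53-/-. *Dyrk3* read 0.59 and 0.49 in wild-type and −0.01 and 0.02 in Trp53-/-.

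Of 43 other listed genes of the pathway, 33 were tested and 10 had probes on the array but none that was kept (*Casp4*, *Casp12*, *Birc3*, *Birc7*, *Naip1*, *Naip2*, *Naip6*, *Xaf1*, *Aifm2* and *Cyct*). In wild-type 4 of the 33 were higher and 6 lower at q below 0.05, and in Trp53-/- 4 were higher and 5 lower. Over all genes, 13.7% were higher and 11.4% lower in wild-type, and 12.8% and 10.6% in Trp53-/-. The counts were not tested against these shares. Under median centring these counts were 22 higher and 0 lower in wild-type and 27 higher and 0 lower in Trp53-/-, in step with the shifted median of all genes. How single calls fared when 1 array was left out is given below. The median log2 ratio of the list was −0.04 in wild-type and −0.06 in Trp53-/-.

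The upstream partners of caspase-2 moved in opposite directions in wild-type. *Pidd1*, the p53-induced core of the PIDDosome, read 1.03 and 0.91 in wild-type and 0.22 and 0.02 in Trp53-/-. Its wild-type mean was 0.97 (q = 0.00016) and its difference between genotypes was 0.85 (q = 0.0128), or 0.74 without replicate 2 of Trp53-/- (q = 0.053). *Cradd*, the adaptor that joins PIDD1 to caspase-2, was lower in both genotypes, at −0.48 in wild-type (q = 0.00331) and −0.58 in Trp53-/- (q = 0.00193), and its sign held under median centring although the call did not. *Pidd1* was also higher in untreated wild-type than in untreated Trp53-/- cells by 1.17 (q = 0.024), where no member was called. *Nol3*, an inhibitor of caspase activation, was lower in both genotypes, at −0.30 in wild-type (q = 0.0248) and −0.55 in Trp53-/- (q = 0.0023), again with its sign kept under median centring. *Aven*, a binding partner of Apaf-1, was higher in Trp53-/- at 0.29 (q = 0.0295).

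Of the 4 tested inhibitor-of-apoptosis proteins besides XIAP, *Birc6*, a large ubiquitin ligase that binds caspases, was higher in both genotypes, at 0.29 in wild-type (q = 0.0239) and 0.61 in Trp53-/- (q = 0.00127). *Birc5*, which encodes survivin and acts in mitosis as well, was at −0.68 in wild-type (q = 0.00211) and −0.32 in Trp53-/- (q = 0.0508), and the wild-type value was 0.06 under median centring, 0.40 below the median of all genes. *Htra2*, a mitochondrial protease that, like Smac, can bind XIAP, was at −0.48 in wild-type (q = 0.0041), 0.20 under median centring and 0.27 below the median there. *Septin4*, whose ARTS isoform binds XIAP, was higher in untreated wild-type than in untreated Trp53-/- cells by 1.0 (q = 0.0387). Of the 4 tested genes for cytochrome c partners and haem attachment, 0 were called in wild-type and 0 in Trp53-/-, and at an unadjusted p below 0.05 the counts were 1 and 0.

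Caspase substrates were called in both directions. *Lmna*, the gene of lamin A/C, which caspase-6 cleaves, read 0.81 and 0.60 in wild-type and −0.40 and −0.07 in Trp53-/-. Its difference between genotypes was 0.94 (q = 0.0139), called under 13 of 16 alternatives and not under median centring. *Lmnb1*, the gene of lamin B1, was at −0.81 in Trp53-/- (q = 0.00636), from −0.34 on replicate 1 and −1.28 on replicate 2, and it was 0.09 under median centring, 0.55 below the median of all genes. Without replicate 2 the value of *Lmnb1* missed the threshold (q = 0.142). *Rock1*, a kinase that caspases switch on by cleavage, was at 0.38 in Trp53-/- (q = 0.033), from 0.10 on replicate 1 and 0.66 on replicate 2. *Bid*, whose cleaved product acts on mitochondria, was higher in both genotypes, at 0.42 in wild-type (q = 0.00826) and 0.39 in Trp53-/- (q = 0.0118). *Gsn*, the gene of the actin-severing protein gelsolin, was at −0.45 in wild-type (q = 0.00556) and −0.46 in Trp53-/- (q = 0.00589), and at 0.10 and 0.25 under median centring, 0.37 and 0.39 below the median of all genes. *Parp1*, the gene of the main target of PJ34 and a caspase substrate, was at −0.40 in wild-type (q = 0.0146), 0.22 under median centring and 0.25 below that median.

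Several of these calls ended when 1 array was left out. In wild-type those of *Birc6* (0.24, q = 0.191) and *Nol3* (−0.27, q = 0.166) ended without either wild-type array, those of *Bid* (0.28, q = 0.142) and *Parp1* (−0.20, q = 0.255) without replicate 2, and that of *Gsn* (−0.37, q = 0.0655) without replicate 1. In Trp53-/- those of *Aven* (0.20, q = 0.327) and *Bid* (0.36, q = 0.132) ended without either Trp53-/- array, that of *Gsn* (−0.35, q = 0.0895) without replicate 1, and those of *Lmnb1* (−0.34) and *Rock1* (0.10, q = 0.525) without replicate 2. The untreated differences of *Pidd1* and *Septin4* were no longer called without either Trp53-/- array (highest q 0.437 and 0.56). The wild-type calls of *Pidd1*, *Lmna*, *Birc5*, *Htra2* and *Cradd*, the Trp53-/- calls of *Birc6*, *Cradd* and *Nol3* and the difference of *Lmna* stood whichever array was left out.

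**Figure D5:**
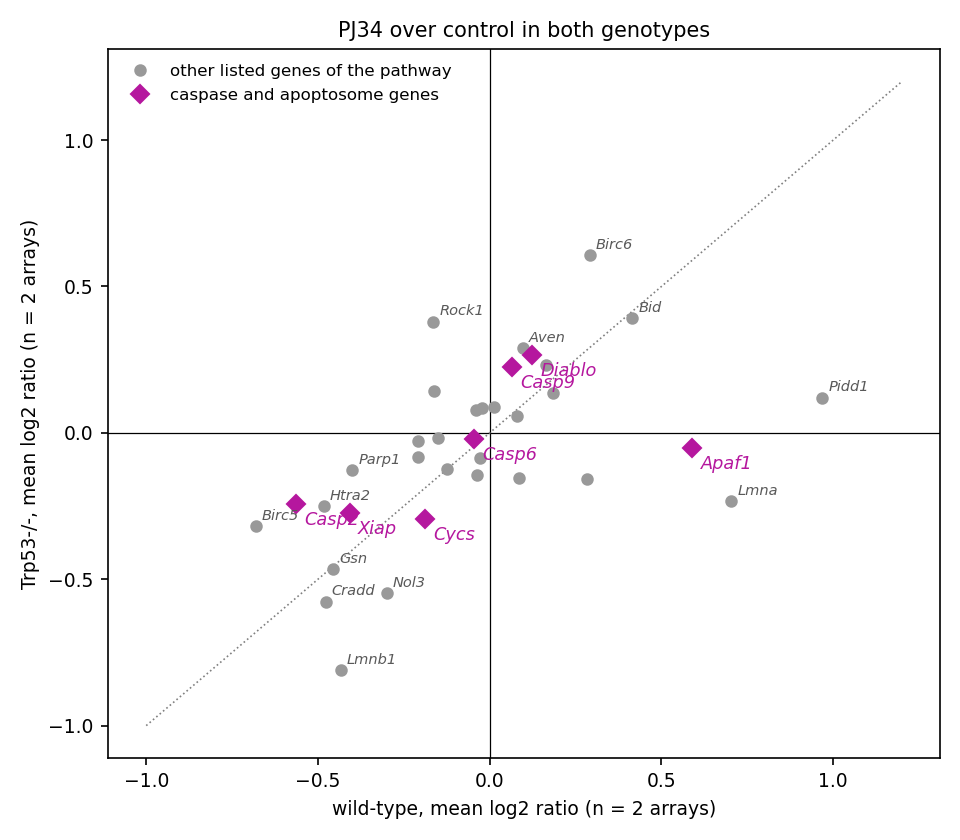
Mean log2 ratio of PJ34 over control in wild-type (x axis) and Trp53-/- (y axis) after loess normalization for the 7 genes (diamonds) and the tested genes of the other pathway lists, the list of other caspases left out (circles, named where q is below 0.05 in either genotype), with a dotted line at equality. *Apaf1*, *Pidd1* and *Lmna* lie far to the right of the line. Median centring of the arrays shifts the median of all genes to 0.46 and 0.64, and *Casp2*, *Xiap* and *Cycs* are positive there.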

How the data were processed

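Mouse NSPC RNA was measured on 4 two-colour Agilent SurePrint G3 Mouse GE arrays, 2 per genotype. The authors used Agilent Feature Extraction 10.7.3.1 for spot extraction, per the labels. The intensity values they deposited, used here, are each spot's mean and its local background's median in each colour. The log10 ratios they deposited, corrected and dye-normalized by that software, were used only as an alternative. The 4 columns of a deposited normalized table match no array by name and were left out.

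Background was corrected with normexp (offset 50), loess was run within arrays, and control and outlier spots (228 to 276 outliers per array) were left out (limma 3.58.1, R 4.3.3). Probes with at least 1 channel well above background on both arrays of a genotype were kept (27042, 48.6%), and a gene was read from its brightest probe. Symbols came from the files' annotation, updated through RefSeq accessions for 27235 probes. limma fitted 1 mean per genotype over all 4 arrays (2 residual degrees of freedom, 10.19 after moderation). Storey q was taken over all 19678 genes, with calls at q below 0.05. Untreated levels came from the control channel after loess and quantile normalization of mean intensities (6.177 degrees of freedom). The number of arrays, 2 per genotype, limits the precision. The code was tested on simulated data.

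Each array was a separate RNA preparation. Same-numbered arrays of the genotypes deviated with correlations of −0.179 (ratios) and 0.0819 (levels). The main tests used no block for the replicate number, and whether arrays of the same number shared a batch was not tested. Named genes were the 7 members, *Trp53*, called genes of the pathway lists (up to 4 per list and comparison, smallest q) and the 3 genes nearest to *Apaf1*. The list of other caspases counts in the pathway totals but is not reported on its own here. The members and lists were chosen with earlier results of these data known. Alternatives covered background, normalization, filter, adjustment, variance model, probe summary, block and leaving out each array.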

Additional observations from a re-analysis of the deposited data

Results flagged for a closer look

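The response to PJ34 differed between genotypes by limma's test of the difference for *Apaf1*, at 0.64 (wild-type minus Trp53-/-, log2, q = 0.0341). It also differed for *Lmna*, at 0.94 (q = 0.0139), and for *Pidd1*, at 0.85 (q = 0.0128). *Apaf1* and *Pidd1* were no longer called without replicate 2 of Trp53-/- (0.64 and 0.74), and *Lmna* was at 1.10 there. With an offset of 16 and with the scanner software's ratios, the difference was called for none of these genes. With median centring it was not called for *Apaf1* and *Lmna*. Groups of 2 arrays are too small to test single arrays as outliers.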

How the results depend on the processing

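The 7 genes in their 4 comparisons gave 476 values under the alternatives. Of these 415 kept direction and side of the threshold, 28 kept direction but lost the call, 12 gained one and 21 changed sign. The cause of these changes was not tested. Many alternatives, such as the block, the adjustment and the variance model, change only the test of a value and cannot change its direction. The same holds for a ratio within a genotype when an array of the other genotype is left out. The 415 therefore overstate how far the values themselves were put to a test.

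Median centring put the median of all genes at 0.46 (wild-type), 0.64 (Trp53-/-) and −0.14 (difference). Its sign changes in wild-type were *Casp2* 0.0736, *Casp6* 0.53, *Cycs* 0.59 and *Xiap* 0.21, in Trp53-/- *Apaf1* 0.28, *Casp2* 0.62, *Casp6* 0.70, *Cycs* 0.80 and *Xiap* 0.57, and in the difference *Cycs* −0.21. With the mean of a gene's probes, the difference for *Cycs* was −0.0213 and the untreated difference for *Diablo* was 0.0543. With single arrays left out, values changed sign within these ranges: *Casp6* from −0.155 to 0.061 in wild-type, from −0.0719 to 0.0308 in Trp53-/- and from −0.13 to 0.0815 for the difference, *Xiap* from −0.28 to 0.017 for the difference, and for untreated levels *Casp9* from −0.27 to 0.0763, *Diablo* from −0.24 to 0.18 and *Xiap* from −0.22 to 0.32.

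The number of members called in Trp53-/-, 3, became 1 with an offset of 16, with no filter and with Benjamini-Hochberg adjustment (*Cycs* each time), 0 with the scanner software's ratios and 7 with median centring, and was from 0 to 3 when single arrays were left out. In wild-type, 3 became 1 with the scanner software's ratios and 5 with median centring (range 1 to 3 without single arrays, 1 without replicate 1). For the difference, 1 became 0 with an offset of 16, with the scanner software's ratios and with median centring (0 to 1 without single arrays). For untreated levels the count stayed 0 under the alternatives that kept all arrays. Leaving out a wild-type array left 1 array for that genotype. Calls over all genes were most numerous without replicate 2 of wild-type, so counts of members from these fits are not read. Over all genes, calls in wild-type were 4951 and from 2241 to 13446, in Trp53-/- 4610 and from 1302 to 14816, for the difference 351 and from 0 to 1118, and for untreated levels 1448 and from 0 to 9713.

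With the replicate number as a block, members called in Trp53-/- were 1 (*Cycs*), the counts in the other comparisons were 3 (wild-type), 1 (difference) and 0 (untreated), and the calls over all genes for the difference were 547 and for untreated levels 3161. The crossed pairing, added after seeing the data, gave 5 members called in Trp53-/- and 3 in wild-type.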
